A study of Mus musculus with 24 samples.

Results

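Solute carriers (Slc genes) encode membrane proteins that move amino acids, sugars, organic ions, metals and other small molecules across the cell surface and across the membranes of mitochondria and lysosomes. All genes of the table whose symbol starts with Slc and a digit were taken, with the exception of Slc10a1. This gave 68 of the 2372 genes in the table, of which 65 were high enough to be tested. In the liver, hepatocytes use such carriers to take up nutrients, drugs and bile acids from blood, to return sugars, metals and metabolites to it, and to feed the urea cycle and fatty acid oxidation in mitochondria. Several organic anion transporters of rodent liver are known to differ between the sexes.

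The liver RNA came from 24 mice in 8 groups of 3, all fed alcohol in the Lieber-DeCarli liquid diet for 3 weeks, so that no mouse without alcohol enters a comparison. Every mouse had received 2 injections of adeno-associated virus (AAV) vectors that carry short hairpin RNAs. In each sex, the groups received AAV-shKdm5b and AAV-shKdm5c then AAV-shControl (the Kdm5 vectors), AAV-shControl then AAV-shAhR (the AhR vector), AAV-shKdm5b and AAV-shKdm5c then AAV-shAhR (both vectors), or AAV-shControl in both injections (control vectors). Kdm5b and Kdm5c encode histone H3 lysine 4 demethylases, and Ahr encodes the aryl hydrocarbon receptor. The labels used here state neither strain and age nor the promoter of the vectors, and each library is its own mouse.

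Kdm5c, a targeted gene, lay at 9.05 to 9.94 FPKM in females with the Kdm5 vectors and at 9.37 to 12.5 FPKM in females with both vectors, against 9.32 to 11.1 FPKM with control vectors, so that the ranges overlapped. In males it lay at 4.64 to 5.89 FPKM with the Kdm5 vectors and at 4.86 to 5.36 FPKM with both vectors, against 6.39 to 7.21 FPKM with control vectors, without overlap. With the AhR vector alone Kdm5c lay at 12.03 to 13.07 FPKM in females, above every female with control vectors, and at 6.92 to 7.81 FPKM in males. The ranges with both vectors and with the AhR vector alone overlapped in females and not in males. Kdm5b and Ahr were not analysed here. FPKM counts the fragments of a gene per length of its transcript and per mapped fragments of the library, so levels can be compared between genes. The depth behind them is unknown. The FPKM of the 68 genes summed to 3591 to 4166 in the 12 females and to 3502 to 4230 in the 12 males. The whole table summed to 281871 to 326460 FPKM in females and to 380206 to 429780 FPKM in males, without overlap. Hepatocyte markers were high in every library, with a summed level of 16995 to 23915 FPKM for 5 genes in females and 19529 to 23452 FPKM in males, and none was at 0.

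The neighbouring organic anion transporters Slc22a26 to Slc22a30 include Slc22a26 and Slc22a27, the members with the largest differences between the sexes. Stretches before annotated transcription starts are shown because near-identical ones stood before genes with different sex patterns. The 5 genes lie on chromosome 19 (GRCm38.p6, 7780094 to 8405111, 625 kb). The windows come from RefSeq on the same build, those shown here are on the minus strand, and capitals in the first 2 mark the 6 of 244 aligned bases at which they differ. The Slc22a28 stretch is chr19:8131983-8132226 and the Slc22a30 stretch is chr19:8405112-8405355.
Slc22a28: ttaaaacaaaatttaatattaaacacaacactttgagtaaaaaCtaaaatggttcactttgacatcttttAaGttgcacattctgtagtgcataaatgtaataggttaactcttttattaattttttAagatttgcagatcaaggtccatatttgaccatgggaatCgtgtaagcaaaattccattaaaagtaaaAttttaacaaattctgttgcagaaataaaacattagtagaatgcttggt
Slc22a30: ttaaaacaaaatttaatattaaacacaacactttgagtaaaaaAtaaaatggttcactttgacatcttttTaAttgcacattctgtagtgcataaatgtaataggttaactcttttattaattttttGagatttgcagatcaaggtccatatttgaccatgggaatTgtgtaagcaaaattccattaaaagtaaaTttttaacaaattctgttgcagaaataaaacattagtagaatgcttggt
The Slc22a29 window aligned with that of Slc22a30 over 168 bases, of which 149 were identical, with 2 bases in gaps. Its stretch (chr19:8218901-8219069) is shown with capitals at the bases that differ or have no partner. It precedes an internal start, 34.3 kb inside the span that RefSeq lists for this gene (8160168 to 8253375).
Slc22a29: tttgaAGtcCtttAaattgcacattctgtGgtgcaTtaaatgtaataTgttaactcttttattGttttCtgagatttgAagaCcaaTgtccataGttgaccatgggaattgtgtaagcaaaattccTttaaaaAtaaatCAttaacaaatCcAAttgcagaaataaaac
The windows of Slc22a26 and Slc22a27 were less alike, with 54.8% of 230 aligned bases identical, and that of Slc22a27 also lies within the span of its gene. The Slc22a26 window (chr19:7802668-7802917) is shown with capitals at its match to TTCNNNGAA, the STAT motif, which was searched on both strands and overlaps neither of the other motifs named below.
Slc22a26: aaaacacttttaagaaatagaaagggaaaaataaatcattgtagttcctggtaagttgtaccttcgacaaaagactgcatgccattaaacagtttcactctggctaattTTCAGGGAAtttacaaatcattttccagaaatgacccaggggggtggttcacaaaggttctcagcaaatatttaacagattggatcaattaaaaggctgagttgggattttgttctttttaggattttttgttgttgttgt
This motif is present in 7.02% of all 32851 windows of 250 bases and in 4 of the 73 windows of the 55 solute carrier genes that have one, those of Slc17a2, Slc22a26, Slc46a3 and Slc51b. A match describes letters only.

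In females, Slc22a26 stood at 32.8 to 35.5 FPKM with the Kdm5 vectors, 43.6 to 68.2 with the AhR vector, 32.0 to 42.4 with both and 49.1 to 70.9 FPKM with control vectors. No male library exceeded 1.15 FPKM, and the lowest was at 0.11 FPKM. Slc22a27 had the same split, with 11.2, 20.4 and 27.6 FPKM as the lowest, median and highest of 12 females and 0, 0.255 and 0.32 FPKM in 12 males. Slc22a29 was lower in level but also separated the sexes, at 1.03, 1.67 and 3.15 FPKM in females and 0, 0.07 and 0.22 FPKM in males. The female-over-male log2 fold changes with control vectors were 6.14 ± 0.24 for Slc22a26, 5.05 ± 0.26 for Slc22a27 and 2.00 ± 0.26 for Slc22a29 (limma adjusted p = 1.44e-13, 6.25e-12 and 5.67e-06). The value after ± is the standard error here and below, and fold changes are on the log2(FPKM + 0.5) scale, which understates low genes.

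Slc22a28 was higher in males. It was listed at 0 in 7 of 12 females, where it reached 0.44 FPKM at most, while the 12 males held 0.3, 1.35 and 2.56 FPKM as lowest, median and highest. The groups overlapped through 1 male with the Kdm5 vectors at 0.3 FPKM, and the log2 fold change with control vectors was -1.26 ± 0.29 (adjusted p = 0.00196). Slc22a30, whose upstream stretch is nearly that of Slc22a28, was found at 18.0, 24.8 and 67.4 FPKM in females and at 26.3, 30.5 and 44 FPKM in males, and passed in none of the 4 sex comparisons. The 5 genes are close relatives, and reads that fit several of them may have been divided by a rule that is not given in the sources used here, so that the low levels of Slc22a28 and Slc22a29 in particular are uncertain.

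**Figure D1:**
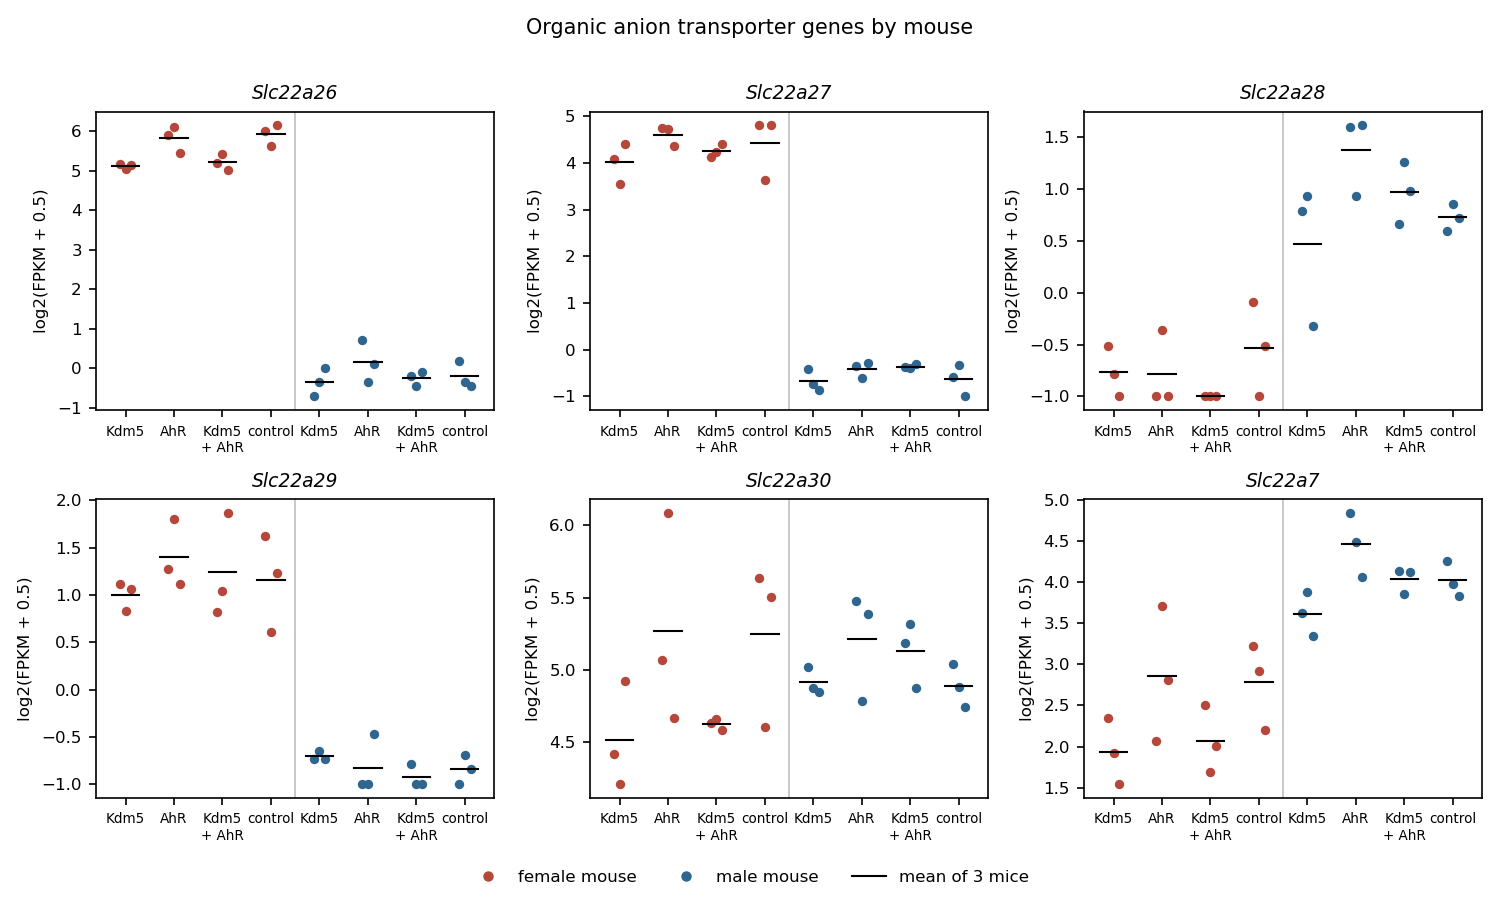
FPKM of 6 organic anion transporter genes in each mouse on the log2(FPKM + 0.5) scale, by vectors, with females left and males right of the line; bars are means of 3 mice. Slc22a26, Slc22a27 and Slc22a29 separate the 12 females from the 12 males, Slc22a28 and Slc22a7 are higher in males with overlapping points, and Slc22a30 overlaps fully.

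With this cluster included, 24 to 37 of the 65 tested solute carrier genes differed between the sexes, shares close to those of all genes in the table. Females were compared with males in each of the 4 vector settings, and a gene passed with a limma adjusted p under 0.05 over all 2299 genes tested. With the Kdm5 vectors 28 members passed, which is 43.1% of 65 members against 36.3% of all genes tested. With the AhR vector 24 passed, or 36.9% against 39.2%, with both vectors 37, or 56.9% against 49.2%, and with control vectors 29, or 44.6% against 42.5%. Females were higher in 18, 14, 30 and 20 of these members in the same order, where 24.8%, 24.6%, 38% and 30.8% of all genes were higher in females. Males were higher in 10, 10, 7 and 9 members, where 11.5%, 14.6%, 11.2% and 11.6% of all genes were higher in males. The median log2 fold change with control vectors was 0.10 over the members and 0.15 over all genes tested. Median-of-ratios scaling lowers the median of all genes by 0.15 log2 there, by 0.12 with the Kdm5 vectors and by 0.15 with both vectors, and it turns the splits into 17 and 14, 13 and 14, 29 and 11, and 17 and 18, in the same order. With the AhR vector and with control vectors, whether more solute carrier genes are higher in females than in males thus depends on the scaling.

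In all 4 settings 11 members were higher in females, 16.9% of those tested against 12.2% of all genes, and 4 were higher in males, 6.15% against 5.44%. With median-of-ratios scaling the first number became 10, since Slc39a5 was lost, and the second became 7, with Slc27a2, Slc2a5 and Slc46a3 added. In 9 of 65 members, or 13.8% against 13.4% of all genes, no female library overlapped a male one. These were 7 with females higher (9% of all genes), namely Slc22a26, Slc22a27, Slc22a29, Slc16a7, Slc39a5, Slc3a2 and Slc40a1, and 2 with males higher (4.44%), Slc10a2 and Slc15a5. Of the 65 members 49 passed in at least 1 sex comparison (75.4%, against 71.6% of all genes tested) and 12 in at least 1 vector comparison (18.5% against 21.1%). The 16 that passed nowhere are 24.6% of the members, against 26.1% of all genes, and all 12 that passed with vectors are among the 49.

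**Figure D2:**
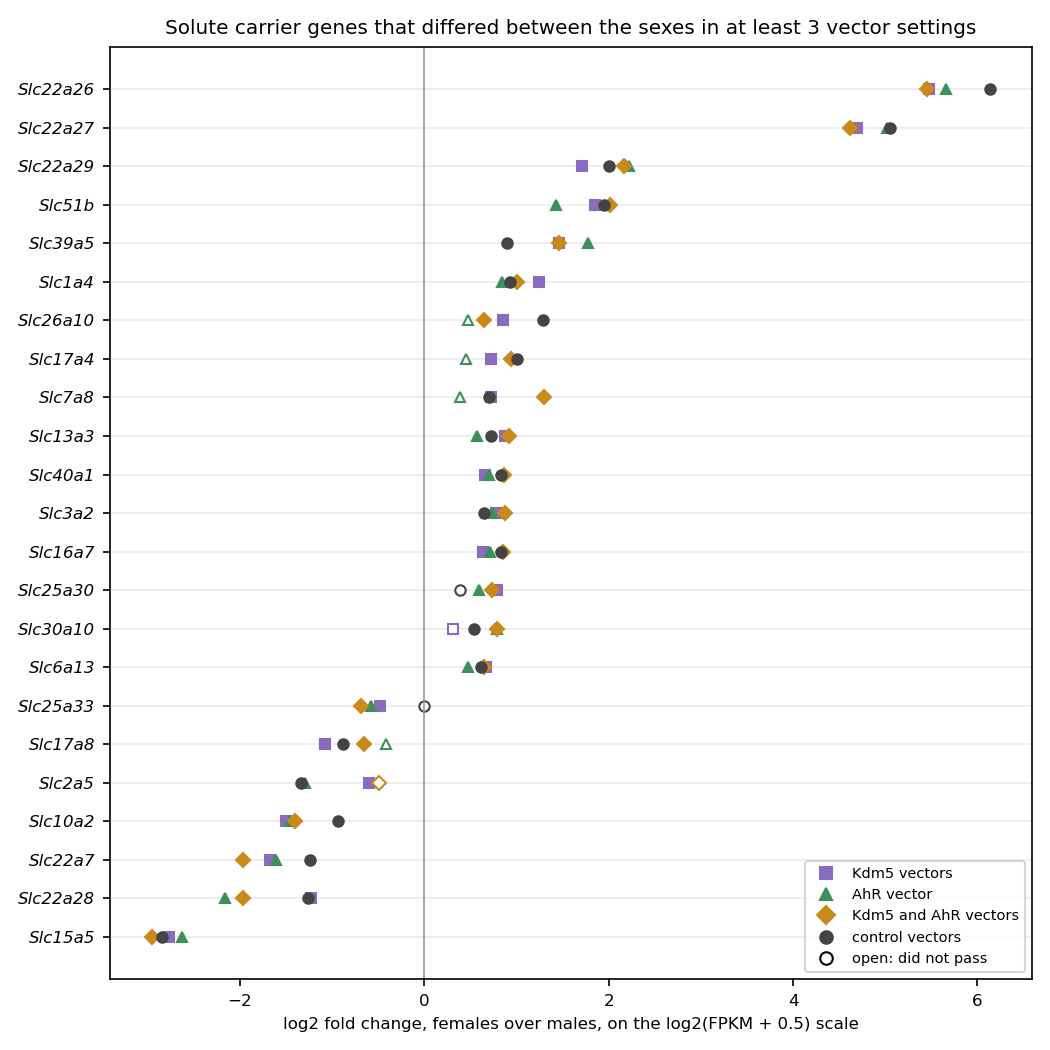
Log2 fold change of females over males in 4 vector settings for the 23 solute carrier genes that passed in at least 3 of them; filled symbols passed and open symbols did not. Slc22a26 and Slc22a27 lie between 4.62 and 6.14, and Slc15a5 lies lowest, between -2.96 and -2.63.

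Markers of other liver cells moved with sex and stand beside all of these results. The 9 Kupffer cell and macrophage markers in the table, such as Clec4f and Cd5l, summed to 446 to 617 FPKM in females and 231 to 425 FPKM in males, and 9, 4, 9 and 9 of them were higher in females with the Kdm5 vectors, the AhR vector, both and control vectors. The 8 sinusoidal endothelium markers summed to 97.4 to 137 FPKM in females and 58.8 to 83.8 FPKM in males, with 7, 6, 8 and 5 higher. The 8 stellate cell markers summed to 229 to 332 FPKM in females and 152 to 213 FPKM in males, with 5, 4, 6 and 6 of 7 tested higher. None of these markers was at 0 in any library. No listed lymphocyte or neutrophil marker was among the genes analysed here. Of 12 clock genes tested, 3, 4, 3 and 4 were higher and 5, 3, 2 and 2 were lower in females in the same order, and the labels give no time of collection. In whole liver, fewer cells of a type and less RNA per cell cannot be told apart, and the part of cell types and of the clock in the sex differences was not tested.

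Among carriers of bile acids and other organic ions, which number 13, 4 were higher in females and 3 in males in all 4 settings. Of all genes tested, 12.2% were higher in females and 5.44% in males in all 4. Slc51b, the beta subunit of the basolateral bile acid exporter, was found at 0.26, 2.67 and 5.17 FPKM in females against 0, 0.395 and 0.84 FPKM in males. Its log2 fold change was 1.95 ± 0.49 with control vectors (adjusted p = 0.00335). Slc10a2, the apical sodium-dependent bile acid transporter known from ileum and bile ducts, had the opposite pattern, at 0.18, 0.32 and 0.88 FPKM in females and 1.21, 1.77 and 2.56 FPKM in males. Its log2 fold change was -0.93 ± 0.26 (adjusted p = 0.00656). Of the genes listed as bile duct markers, Sox9, Krt8 and Krt18 were in the table. With control vectors Sox9 was lower in females (-0.81 log2), and Krt8 and Krt18 did not pass. How specific Krt8 and Krt18 are to bile ducts was not tested.

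Slc22a7, a basolateral organic anion transporter of hepatocytes, stood at 2.41, 4.34 and 12.6 FPKM in females and 9.62, 15.8 and 28.2 FPKM in males, with a log2 fold change of -1.24 ± 0.33 with control vectors (adjusted p = 0.0056). A single female with the AhR vector, at 12.6 FPKM, reached into the male range. Slc17a8, a vesicular glutamate transporter, was also lower in females with control vectors (-0.88 ± 0.27), but not without male control mouse 3. Slc17a2 and Slc17a4, organic anion and phosphate transporters of the same family, were higher with control vectors by 0.84 ± 0.22 and 1.00 ± 0.23 log2 (adjusted p = 0.00508 and 0.00164). Slc17a2 passed in no other setting, and Slc17a4 did not pass with the AhR vector. Slc2a9, a urate transporter, passed only with both vectors among the 4 sex settings, and Slc22a18 was lower in females there.

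All 4 metal transporters passed in some sex comparison, each of them with females higher, which holds for 33 of the 65 members and for 50% of all genes tested. Slc40a1 encodes ferroportin, which exports iron from hepatocytes and macrophages. It measured 54.3, 67.1 and 98.4 FPKM in females and 34.4, 41.7 and 50.2 FPKM in males, and its log2 fold change with control vectors was 0.83 ± 0.15 (adjusted p = 0.000153). Slc39a5, a zinc importer of the basolateral membrane, measured 1.71, 2.90 and 6.71 FPKM in females and 0.35, 0.92 and 1.43 FPKM in males. Its log2 fold change of 0.89 ± 0.31 with control vectors passed (adjusted p = 0.0263), but not after median-of-ratios scaling, nor without female control mouse 1 or 3 or male control mouse 2 or 3. The manganese exporter gene Slc30a10 was higher by 0.54 ± 0.15 log2 with control vectors (adjusted p = 0.00559).

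Of the 15 amino acid carriers, Slc3a2, Slc1a4 and Slc6a13 were higher in females in every setting and none was higher in males in every setting. Over all genes tested these shares were 12.2% and 5.44%. Slc3a2 encodes the heavy chain that light chains such as that of Slc7a8 need at the cell surface. It measured 15.8, 17.6 and 21.5 FPKM in females and 8.55, 10.2 and 14.0 FPKM in males, with a log2 fold change of 0.65 ± 0.14 with control vectors (adjusted p = 0.00125). Slc7a8 itself was higher in females by 0.70 ± 0.21 with control vectors (adjusted p = 0.0113) and did not pass with the AhR vector. Slc1a4, a carrier of alanine, serine and cysteine, was at 0.79 to 2.20 FPKM in females and 0.34 to 0.85 FPKM in males. Slc6a13, a GABA and taurine transporter of the hepatocyte surface, was at 99.9 to 156 FPKM in females and 70.4 to 99.9 FPKM in males, and its log2 fold change was 0.62 ± 0.16 with control vectors (adjusted p = 0.00412). The taurine transporter gene Slc6a6 passed with both vectors and with control vectors, at 0.82 and 0.78 log2.

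The highest levels among amino acid carriers were those of Slc38a3 and Slc38a4. Slc38a3, which encodes the glutamine transporter SNAT3, was at 335 to 551 FPKM in females and 378 to 593 FPKM in males and passed only with the AhR vector (-0.36 log2). Slc38a4 was at 214 to 327 FPKM in females and 275 to 348 FPKM in males and passed in no comparison. Of 28 genes of amino acid breakdown and the urea cycle tested, 0 were higher and 4 were lower in females with control vectors (Bhmt, Oat, Mat1a and Gpt2, from -2.34 to -0.61 log2). Of all genes tested, 30.8% were higher and 11.6% lower in females in that setting. Slc43a2, which carries neutral amino acids, was higher in females with both vectors (1.04 log2), and Slc6a16 was lower with the AhR vector (-0.76). Slc7a2, Slc6a12, Slc1a2 and Slc6a9, carriers of arginine, betaine, glutamate and glycine, passed in no comparison and had means of 74.3, 39.1, 26.7 and 16.9 FPKM.

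Among the 6 carboxylate carriers, Slc16a7, a monocarboxylate transporter for lactate and pyruvate, measured 31.9, 40.3 and 47 FPKM in females and 16.2, 24.4 and 30.1 FPKM in males. Its log2 fold change was 0.83 ± 0.16 with control vectors (adjusted p = 0.000378). Slc13a3, a sodium-coupled dicarboxylate transporter, was higher by 0.73 ± 0.18 (adjusted p = 0.00379) and passed in every setting. Slc16a6 was higher in females only with both vectors (1.02 log2). Slc16a5 passed with the Kdm5 vectors (1.33) and with both vectors (0.96), and Slc16a13 was lower in females only with control vectors (-0.76 ± 0.26), a call lost without female control mouse 1 or male control mouse 2 or 3. Slc13a5, a citrate importer, stayed under the level needed for a test, at 0.29 to 0.97 FPKM in females and 0 to 0.41 FPKM in males.

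Males were higher in Slc15a5, a member of the peptide transporter family, at 0, 0.16 and 0.51 FPKM in females and 2.44, 4.16 and 6.06 FPKM in males. Its log2 fold change was -2.85 ± 0.28 with control vectors (adjusted p = 1.64e-07), and it was listed at 0 in 2 female libraries. Slc2a5, the fructose transporter GLUT5, was at 0.68, 1.34 and 3.39 FPKM in females and 2.47, 3.48 and 4.03 FPKM in males, with a log2 fold change of -1.34 ± 0.23 with control vectors (adjusted p = 0.000133). The vitamin C transporters moved apart, since Slc23a1 was lower in females by -0.56 ± 0.20 log2 and Slc23a2 higher by 0.56 ± 0.19 (adjusted p = 0.0262 and 0.0264). With median-of-ratios scaling Slc23a2 no longer passed, and it was lost without female control mouse 1 or 3 or male control mouse 3. Slc23a1 was lost without female control mouse 2 or 3 or male control mouse 1 or 3. Slc27a2, a fatty acid transport protein and acyl-CoA synthetase with the highest level of all members, was at 545 to 784 FPKM in females and 701 to 998 FPKM in males, and passed with control vectors only (-0.42 ± 0.13, adjusted p = 0.0138), though not without female control mouse 3 or male control mouse 2.

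Of the 10 members of the mitochondrial carrier family (Slc25), 6 passed in no comparison, which held for 26.1% of all genes tested. They were grouped by family and not by place in the cell. Among the 6 were the ADP/ATP carrier Slc25a5 (286 to 355 FPKM in females, 286 to 356 in males) and the phosphate carrier Slc25a3 (149 to 196 FPKM in females, 145 to 185 in males). The aspartate-glutamate carrier of the urea cycle, Slc25a13, the carnitine-acylcarnitine carrier Slc25a20 and the citrate carrier Slc25a1 had means of 87.0, 82.7 and 80.1 FPKM over all libraries and also passed nowhere, nor did Slc25a17. Slc25a39, a mitochondrial glutathione importer with a mean of 298 FPKM, was higher in females only with the Kdm5 vectors (0.29 log2). Slc25a30 was higher in females and Slc25a33 lower in every setting that carried a vector against Kdm5 or Ahr, and neither passed with control vectors. Slc25a37, the iron importer of mitochondria known from red cell precursors, was higher in females with both vectors (0.81 log2); the 3 erythroid markers in the table summed to 689 to 1439 FPKM in females and 521 to 997 FPKM in males. The globin genes Hba-a2 and Hbb-bs make up most of this sum and passed with females higher there. Alas2, the heme synthesis enzyme of red cell precursors, went the other way, at 5.66 to 11.7 FPKM in females and 33 to 49.3 FPKM in males, and was lower in females in all 4 settings (-2.18 to -2.04 log2).

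Among the remaining classes, the bicarbonate cotransporter gene Slc4a4 was higher in females with the AhR vector (0.70 log2) and with both vectors (0.83). Slc26a10 was higher with the Kdm5 vectors (0.86), with both (0.65) and with control vectors (1.29 ± 0.22, adjusted p = 9.97e-05). The lysosomal carrier gene Slc46a3 was lower in females with the Kdm5 vectors (-0.45) and with the AhR vector (-0.52), and the heme and folate carrier gene Slc46a1 passed nowhere. Slc35e3 was lower in females with the Kdm5 vectors (-0.49), and Slc9a3r1, which takes its symbol from the exchanger it binds and encodes a scaffold protein, was lower with the AhR vector (-0.34). Slc33a1, Slc27a4 and Slc27a5, which carry acetyl-CoA and activate fatty and bile acids, passed nowhere. Slc37a2 and Slc9a7 stayed under the level needed for a test, at 0.13 to 1.02 FPKM and 0.17 to 0.85 FPKM over all libraries.

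In all, 8 members had a mean of at least 100 FPKM, 31 lay between 10 and 100, 24 between 1 and 10, and 5 under 1. The median of the member means was 13.4 FPKM, against 18.2 FPKM for the table, and the 10 highest held 67.8% to 77.4% of the summed level of all 68 in each library.

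**Figure D3:**
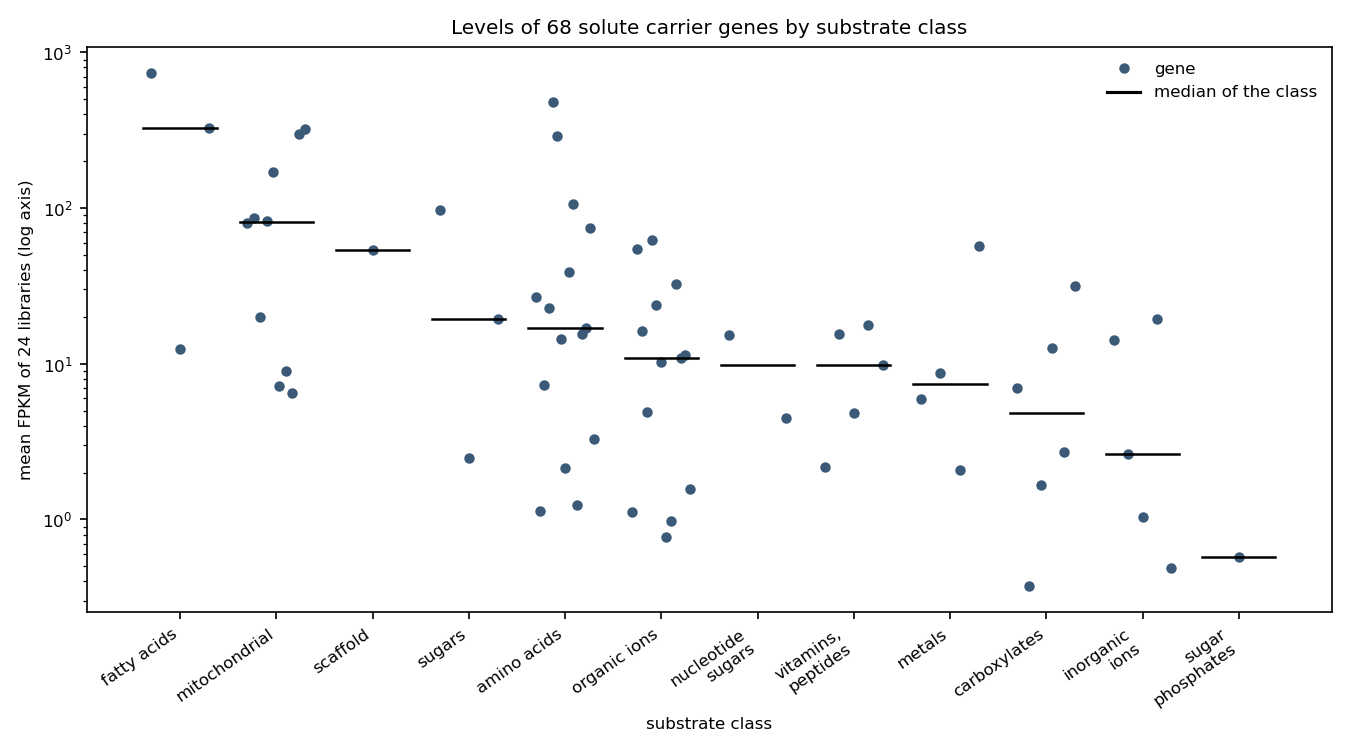
Mean FPKM of each of the 68 solute carrier genes over the 24 libraries on a log axis, by substrate class, with the class median as a bar. Fatty acid carriers (median 325 FPKM) and the mitochondrial carrier family (81.4 FPKM) stand highest, and single genes reach 741 FPKM (Slc27a2) and 482 FPKM (Slc38a3).

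The vectors changed far fewer solute carrier genes than sex did. The comparisons of 1 sex share libraries. Those against control vectors share the control mice, and all those with both vectors share the same mice of both vectors. The mice with the Kdm5 vectors or the AhR vector alone also enter more than 1 comparison. Results are therefore given side by side and not as support for each other. In females the Kdm5 vectors changed 5 members, 1 higher and 4 lower, or 7.69% of 65 against 6.87% of all genes (3.39% higher and 3.48% lower). In males they changed 1 member, which was lower, against 1.22% of all genes (0.174% lower). The AhR vector changed 0 members by limma in females, with 3 at an unadjusted p under 0.05, and 0 in males, with 8, where 0.217% and 1.09% of all genes passed. No other tool was run. Both vectors together changed 4 members in females, all higher, where 11.6% of all genes passed and 7.79% were higher. They changed 2 in males, both lower, where 2.35% passed and 1.35% were lower.

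In females, Slc30a1 fell with the Kdm5 vectors and was the only one of the 5 whose call held without any 1 of the 6 libraries. It encodes ZnT1, the exporter of zinc at the cell surface. Its level was 3.85, 5.54 and 4.46 FPKM with the Kdm5 vectors, 5.83, 5.83 and 6.5 with the AhR vector, 6.99, 7.31 and 7.77 with both, and 8.68, 8.16 and 6.91 FPKM with control vectors. All 3 mice with the Kdm5 vectors lay below all others of their sex. It fell by 0.73 log2 with the Kdm5 vectors (SE 0.12, adjusted p = 0.00462). When the AhR vector was added to the Kdm5 vectors it rose by 0.63 ± 0.12 (adjusted p = 0.0163), where 2.09% of all genes passed and 1.83% rose. This second call held without 3 of 6 libraries and was lost without Kdm5 mouse 3 or without mouse 2 or 3 of both vectors.

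The interaction, which asks whether the effect of the Kdm5 vectors depends on the AhR vector, was 0.99 ± 0.18 log2 for Slc30a1 in females (adjusted p = 0.0141). It was the only member that passed there (0.609% of all genes), and it passed in 10 of 12 fits without 1 library, failing without control mouse 1 and without mouse 3 of both vectors. In males Slc30a1 stood at 4.95 to 5.75 FPKM with the Kdm5 vectors and 5.77 to 6.64 FPKM with control vectors, with -0.16 on the log2 scale, which missed the threshold. The upstream window (RefSeq, GRCm38.p6, chr1:191906531-191906780, plus strand) is shown with capitals at the match to TGCACNC, a form of the core of the metal response element, here on the other strand. RefSeq lists the gene from 191906697, so the last 84 bases, with the match, lie inside its span.
Slc30a1: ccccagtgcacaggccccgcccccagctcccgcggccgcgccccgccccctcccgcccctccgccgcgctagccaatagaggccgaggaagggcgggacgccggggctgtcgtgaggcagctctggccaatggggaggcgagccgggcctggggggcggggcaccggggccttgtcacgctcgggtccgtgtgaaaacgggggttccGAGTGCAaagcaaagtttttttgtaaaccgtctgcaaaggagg
This core is found in 10.4% of all windows and in 10 of the 73 windows of solute carrier genes.

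Slc38a2 encodes SNAT2, an amino acid transporter known to rise when cells lack amino acids. In females it was at 19.3, 15.6 and 14.9 FPKM with the Kdm5 vectors and at 31.6, 26.1 and 32.9 FPKM with control vectors. In males it was at 19.0, 25.3 and 23.0 FPKM with the Kdm5 vectors and at 14.3, 20.6 and 15.3 FPKM with control vectors. The female groups did not overlap and the male ones did. It fell by 0.85 log2 in females (SE 0.20, adjusted p = 0.0175), while the male value of 0.42 did not pass. The difference of the effects, females minus males, was -1.27 ± 0.29 (adjusted p = 0.0314), and Slc38a2 was the 1 member that passed in this comparison (1.74% of all genes). The difference passed in 4 of 12 fits without 1 library, those without male control mouse 1 or 2, female control mouse 2 or female Kdm5 mouse 1. The female change passed in 2 of 6, those without control mouse 2 or Kdm5 mouse 1. With control vectors, the log2 fold change of Slc38a2, females over males, was 0.84 ± 0.20 (adjusted p = 0.00264), and this passed in 6 of 6 such fits. Of 7 other genes of the amino acid response tested, such as Asns and Trib3, 0 changed with the Kdm5 vectors in females and 1 (Herpud1, 0.91) rose in males. Herpud1 also passed in the difference of the effects, females minus males, at -1.39 ± 0.30 (adjusted p = 0.0291). In females against males with control vectors, 1 of the 7 was higher (Herpud1, 0.72 log2) and 1 lower (Asns, -1.65). With the AhR vector 0 were higher and 5 lower in females, where 24.6% of all genes were higher and 14.6% lower.

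The other members that changed with the Kdm5 vectors in females passed in only 1 of 6 fits without 1 library, that without control mouse 2. The mitochondrial pyrimidine nucleotide carrier gene Slc25a33 was at 6.53, 6.53 and 6.49 FPKM with the Kdm5 vectors and 10.4, 8.43 and 10.6 FPKM with control vectors, and fell by 0.54 log2 (SE 0.15, adjusted p = 0.0364). Slc22a26 fell by 0.81 log2 (SE 0.24, adjusted p = 0.0478) but did not pass with median-of-ratios scaling. Slc34a2, a sodium-phosphate cotransporter, was at 2.01, 2.53 and 2.35 FPKM with the Kdm5 vectors and 1.02, 1.21 and 0.41 FPKM with control vectors. It rose by 1.07 ± 0.32 log2 (adjusted p = 0.0478). In the same comparison the endothelium markers Lyve1 and Gpr182 were higher, 2 of 8, and no marker of Kupffer or stellate cells passed. Median-of-ratios scaling gave 2 members higher and 3 lower.

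In males the Kdm5 vectors lowered Slc25a30, a mitochondrial carrier gene, to 3.64, 4.95 and 2.79 FPKM, against 7.44, 9.37 and 6.29 FPKM with control vectors, without overlap. It fell by 0.95 log2 (SE 0.23, adjusted p = 0.0413), and the call held in 1 of 6 fits without 1 library, that without Kdm5 mouse 2. In females its log2 fold change of -0.54 did not pass.

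Slc2a2 encodes GLUT2, the facilitative glucose transporter of the hepatocyte surface. It measured 132, 133 and 144 FPKM in females with both vectors, above every other library of the series. The other female groups had 99.0, 85.3 and 92.3 FPKM with the Kdm5 vectors, 103, 87.1 and 81.5 FPKM with the AhR vector and 105, 85.6 and 104 FPKM with control vectors. Males ranged from 71.0 to 103 FPKM over all 4 groups. In females, both vectors together raised Slc2a2 by 0.47 ± 0.13 log2 over control vectors (adjusted p = 0.0293). It rose by 0.59 ± 0.13 when the Kdm5 vectors were added to the AhR vector (adjusted p = 0.0332) and by 0.56 ± 0.13 when the AhR vector was added to the Kdm5 vectors (adjusted p = 0.0267). In the first of these additions it was the only member to pass (0.696% of all genes), and in the second it and Slc30a1 passed. Each of these calls held in 1 of 6 fits without 1 library, those without control mouse 3, AhR mouse 1 and Kdm5 mouse 1 in this order, and the log2 fold changes ranged from 0.38 to 0.69 over the fits. The interaction in females passed only for Slc30a1.

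Its upstream window (RefSeq, GRCm38.p6, chr3:28697653-28697902, plus strand) is shown with capitals at 2 matches to ATTGAT, a core bound by Onecut factors, 1 on each strand.
Slc2a2: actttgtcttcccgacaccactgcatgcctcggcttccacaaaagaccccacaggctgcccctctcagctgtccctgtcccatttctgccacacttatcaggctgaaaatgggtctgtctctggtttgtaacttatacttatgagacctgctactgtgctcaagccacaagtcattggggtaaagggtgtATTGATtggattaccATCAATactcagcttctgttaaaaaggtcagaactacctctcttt
The motif is found in 6.72% of all windows and in 6 of the 73 windows of solute carrier genes.

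The other members that rose in females with both vectors were Slc2a5, Slc36a1 and Slc12a7. Slc2a5 was at 1.94, 2.22 and 2.46 FPKM with both vectors and 0.98, 1.23 and 0.97 FPKM with control vectors, and rose by 0.79 ± 0.23 log2 (adjusted p = 0.0342). Slc36a1, a proton-coupled amino acid transporter of lysosomes, was at 9.05, 10.0 and 10.5 FPKM with both vectors and 7.04, 5.05 and 8.36 FPKM with control vectors. It rose by 0.52 ± 0.16 log2 (adjusted p = 0.0419). Slc12a7, the potassium-chloride cotransporter KCC4, was at 17.0, 19.2 and 16.4 FPKM with both vectors and 11.7, 11 and 14.2 FPKM with control vectors. It rose by 0.50 ± 0.15 log2 (adjusted p = 0.0404). Each of the 3 passed in 1 of 6 fits without 1 library, that without control mouse 2 for Slc2a5 and without control mouse 3 for the others, and the calls of all 4 members were lost when the 2 groups were fitted alone. With median-of-ratios scaling the split was 4 higher and 1 lower.

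Clock genes moved in the same comparison. Of 12 tested, 4 rose in females with both vectors (Dbp by 2.24, Nr1d1 by 1.95, Per3 by 1.24 and Tef by 1.05 log2) and 3 fell (Cry1, Nfil3 and Arntl, from -1.02 to -0.55). With the AhR vector added to the Kdm5 vectors in females 4 rose and 1 fell, and with both vectors in males 2 rose and 1 fell. With the Kdm5 vectors 0 passed in females and 1 rose in males. The AhR vector moved 0 in females, while in males Per1 rose by 0.93 and Arntl fell by 0.85 log2. When the Kdm5 vectors were added to the AhR vector 1 fell in females and 1 in males (Per1, by 0.82 log2). The interaction was below 0 for 1 in females and for Per1 in males (-1.52). The part of the clock in the changes of solute carrier genes was not tested. Stellate cell markers were higher in 2 of 7 and endothelium markers in 1 of 8 in females with both vectors.

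In males the members that changed with both vectors fell. Slc34a2 was at 0.23, 0.18 and 0.08 FPKM with both vectors and 1.67, 0.63 and 1.33 FPKM with control vectors, and fell by 1.32 log2 (SE 0.32, adjusted p = 0.0306). All of these levels are low, and the call was lost with a pseudocount of 1 and in 5 of 6 fits without 1 library, all but that without control mouse 2. Slc30a10, the manganese exporter gene, was at 5.99, 5.49 and 4.72 FPKM with both vectors and 7.38, 9.12 and 8 FPKM with control vectors. It fell by 0.56 log2 (SE 0.15, adjusted p = 0.0494) and passed in 0 of 6 fits without 1 library.

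When the Kdm5 vectors were added to the AhR vector in males, 2 members fell, where 3.26% of all genes passed and 2.35% fell. Slc12a7 was at 13.2, 9.58 and 8.01 FPKM with both vectors and 15.0, 14.2 and 19.7 FPKM with the AhR vector, and fell by 0.65 log2 (SE 0.15, adjusted p = 0.0196). Slc45a3, a member of a sugar transporter family, was at 13.0, 12.1 and 9.28 FPKM with both vectors and 15.8, 21.1 and 26 FPKM with the AhR vector, and fell by 0.83 log2 (SE 0.21, adjusted p = 0.0341). Slc45a3 also fell by 1.01 log2 when the AhR vector was added to the Kdm5 vectors in males (SE 0.21, adjusted p = 0.0334; 0.913% of all genes), which stood at 25.4, 24.8 and 20.3 FPKM without it. Its interaction in males was -1.31 ± 0.30 (adjusted p = 0.0304; 1.61% of all genes). Without 1 library, the first Slc45a3 call held in 2 of 6 fits (without AhR mouse 1 or mouse 1 of both vectors), the second in 1 of 6 (without mouse 1 of both vectors) and the interaction in 4 of 12 (without control mouse 3, AhR mouse 1, Kdm5 mouse 3 or mouse 1 of both vectors). That of Slc12a7 held in 3 of 6 (without AhR mouse 1 or 2 or mouse 1 of both vectors). In the comparison of the AhR vector's effect between the sexes 0 members passed by limma, with 8 at an unadjusted p under 0.05 (0.565% of all genes passed).

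**Figure D4:**
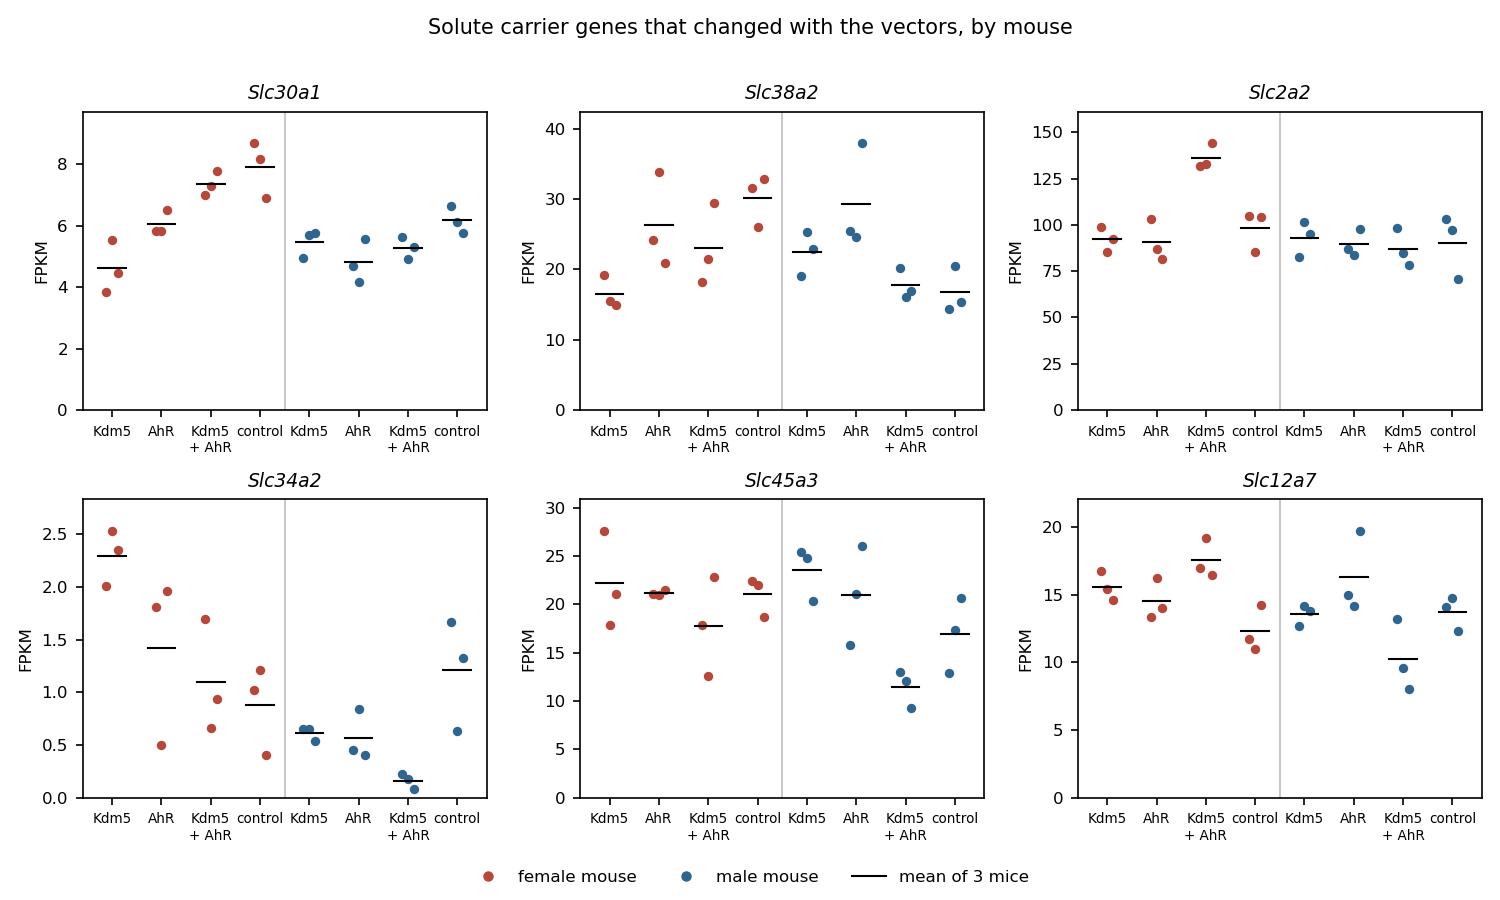
FPKM of 6 solute carrier genes in each mouse by vectors, with females left and males right of the line; bars are means of 3 mice. Slc2a2 is at 132 to 144 FPKM in the females with both vectors and at or under 105 FPKM elsewhere, and Slc30a1 is at 3.85 to 5.54 FPKM in females with the Kdm5 vectors.

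**Figure D5:**
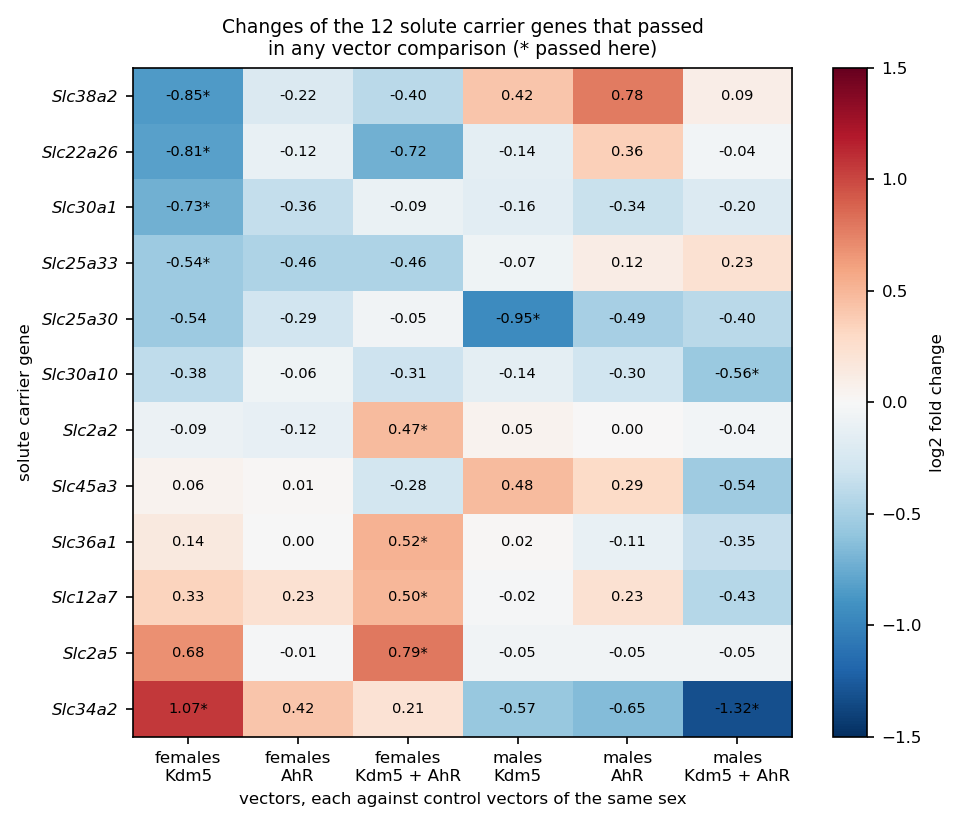
Log2 fold changes of the 12 solute carrier genes that passed in any vector comparison, for each vector setting against control vectors of the same sex; an asterisk marks a value that passed. Slc45a3 has none because it passed only where 1 vector was added to another.

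Other transporter families were counted beside the solute carriers. Of 15 ATP-binding cassette transporter genes tested, 8 were higher and 2 lower in females than in males with control vectors. Their median was 0.48 log2, against 0.15 over all genes tested, of which 30.8% were higher and 11.6% lower. Abcb1a (2.19) and Abcd2 (2.15) led. With the Kdm5 vectors in females, Abcd4 rose by 0.62, and Abcb1a and the bile salt export pump gene Abcb11 fell by 0.93 and 0.84 log2. Of 3 Slco genes, Slco1a4 was higher in females (1.60) and Slco1a1 lower (-2.79), and Slco1a1 fell by 2.26 log2 in females with both vectors.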

How the data were processed

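RNA of 24 livers was measured, and 1 table of the whole series was used. Its deposited values are FPKM, per the file headers, rounded to 2 decimals, although the table was deposited under a name that speaks of raw counts. HISAT, Bowtie2 and GRCm38.p6 are named in the submitters' processing notes; their versions, the counting step, its use of strand and how the 2372 genes were chosen are not stated in any source used here. Reads of overlapping genes cannot be told apart, and adjusted p-values hold within this table. Depth is unknown, and no counting interval is given.

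Values were tested as log2(FPKM + 0.5) with limma 3.58.1 in R 4.3.3, 1 mean for each of 8 groups, an intensity trend and robust moderation (16 residual degrees of freedom). A gene was tested if 3 or more libraries reached 1 FPKM, which held for 2299 genes and left out 73; Slc13a5, Slc37a2 and Slc9a7 were among them. Adjusted p-values are Benjamini-Hochberg values over the 2299 genes in each of 18 comparisons, with a threshold of 0.05. The procedure was tested on simulated data. Groups come from the labels; mouse numbers 1 to 3 follow sample order and pair nothing. Of the value columns, 0 were left unused.

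The genes named are members that passed, up to 10 highest and 10 lowest in a comparison whose mean over the libraries compared reached 1 FPKM, the highest members of each class, and up to 4 members of other lists that passed. Other members, such as Slc13a5, Slc2a9, Slc6a6, Slc25a13, Slc25a20 and Slc25a1, were named after their values were seen. Members and lists were chosen with earlier results of these data known. Substrate classes follow the known roles of the families. Upstream windows (250 bases) are from RefSeq, GRCm38.p6, in which all 68 members were found and 55 had a window; they were aligned with Biopython 1.88. Alternatives were another scaling, no filter, a filter of 5 FPKM, pseudocounts of 1 and 0.1, fits on the compared groups alone, and leaving out each library.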

Additional observations from a re-analysis of the deposited data

Results flagged for a closer look

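Effects of the same vectors that differed between groups were looked at again. The change of Slc38a2 with the Kdm5 vectors differed between the sexes by -1.27 log2, females minus males. The effect of the Kdm5 vectors depended on the AhR vector by 0.99 log2 for Slc30a1 in females and by -1.31 log2 for Slc45a3 in males. These 3 differences passed their own test.

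In 5 further cases the 2 groups compared overlapped in neither sex and lay in opposite order in females and males; the difference between the sexes was not tested. These 5 are 2.56% of the 195 pairs of a member and 1 of the 3 comparisons used, against 337 of 6897 pairs, or 4.89%, over all genes tested. With both vectors against control vectors Slc36a1 stood at 0.52 log2 in females and -0.35 in males. With the Kdm5 vectors added to the AhR vector Slc12a7 stood at 0.27 in females and -0.65 in males, and Slc2a9 at 0.46 in females and -0.16 in males. With the AhR vector added to the Kdm5 vectors Slc25a37, the mitochondrial iron importer of red cell precursors, stood at 0.44 in females and -0.42 in males, and Slc36a1 at 0.38 in females and -0.37 in males.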

How the results depend on the processing

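No paired analysis was possible because the labels give the groups no shared replicate numbers; the numbers only name mice. Of 50 gene values from the vector comparisons and from females against males with control vectors, none reversed under any alternative run; recomputed under them, 455 values stayed on their side of the threshold and 150 lost it. The no-filter setting moved no member count by over 1.5 times. Fitted on the compared groups alone, the member counts were 0 in place of 5 (Kdm5 vectors, females), 1 (males), 4 (both vectors, females), 2 (males), 1 (Kdm5 added to AhR, females), 2 (AhR added to Kdm5, females) and 1 in each interaction, and 1 in place of 2 (Kdm5 added to AhR, males). That 1 was neither Slc12a7 nor Slc45a3, whose calls in this comparison were both lost. Fewer samples enter these fits. A pseudocount of 0.1 gave 3 in place of 5 for the Kdm5 vectors in females, and both vectors in males gave 0 with a pseudocount of 1 and 0 with the filter of 5 FPKM, which leaves 52 members. Slc34a2 was too low to be tested under that filter, and too low in males to be tested in the fit on control and both vectors alone. In the other cases the cause was not tested.

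Leaving out 1 library gave, for the Kdm5 vectors, 1 to 10 members in females (1 without control mouse 1 and without Kdm5 mouse 2 or 3, 2 without control mouse 3, 3 without Kdm5 mouse 1 and 10 without control mouse 2) and 0 to 1 in males (0 in every fit except that without Kdm5 mouse 2). It gave 0 to 1 for the AhR vector in males (1 without control mouse 2), 0 to 5 for both vectors in females (0 without control mouse 1 or any mouse of both vectors) and 0 to 1 in males. For the Kdm5 vectors added to the AhR vector it gave 0 to 1 in females and 0 to 2 in males, and for the AhR vector added to the Kdm5 vectors 0 to 2 in females and 0 to 1 in males. The difference of the Kdm5 effect between the sexes gave 0 to 2, and the interactions 0 to 1 in females and 0 to 2 in males. Counts of females against males stayed within 1.5 times in every such fit.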
